A study of Mus musculus with 6 samples.

Results

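This account follows 10 genes of the transforming growth factor beta (TGF-beta) superfamily in the mammary gland: the ligand genes Tgfb1, Tgfb2, Tgfb3, Bmp2, Bmp4, Bmp7, Gdf10, Inhba and Inhbb, and Tgfbr2, which is a receptor gene and not a ligand. They were chosen by name, as every probe set whose only gene symbol in the platform annotation is one of these 10. The rule found 20 probe sets among 45037. Total RNA came from mammary glands of female bitransgenic mice, bred by crossing MMTV-neu mice to a line that the labels name only LH. In MMTV-neu animals a viral promoter active in mammary epithelium drives the neu (Erbb2) oncogene, and the sources used here do not say what the LH line carries. Glands of animals aged 10 weeks were compared with glands of animals aged 5 weeks, and both ages carry both transgenes, so the arrays hold no gland without them. Each age had 3 arrays, and each array carried RNA pooled from 3 animals, for 9 animals per age. Values below are linear signal intensities in array units, given as pools 1, 2 and 3 of an age, which have no order.

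Ligands of this superfamily are secreted as dimers and bind pairs of type I and type II receptor kinases, which phosphorylate Smad proteins that then act on transcription in the nucleus. TGF-betas and activins signal through one branch of Smads and bone morphogenetic proteins (BMPs) through another. TGF-betas are released in a latent form held in the matrix, and many BMPs and activins are trapped by secreted antagonists. In the mammary gland TGF-betas are known as inhibitors of ductal growth, and TGF-beta3 is also known from milk stasis and involution. BMPs and activins take part in bud formation, ductal branching and alveolar development.

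The 3 TGF-beta genes did not share an age difference, and the BMP-type ligands that could be tested were lower or not called at 10 weeks. Tgfb2 and Tgfb3 were higher at 10 weeks, by 3.02-fold and 2.36-fold in mean signal. Gdf10 was lower by 6.74-fold and Bmp7 by 1.96-fold in mean signal, where the 10-week signals of Gdf10 were near the array median and the fold may be a lower bound. Tgfbr2 was lower on its brightest probe set, by a log2 difference of -0.38. A filter on dim probe sets left 8 of the 10 genes to test. Of these, 2 were called higher and 3 lower at a Benjamini-Hochberg adjusted p under 0.05 in limma, over all probe sets. Among all 13002 genes tested, 15.3% were called higher and 18.7% lower. Of the 15 probe sets tested, 5 were called higher and 4 lower, against 13.4% and 15.3% of all 27022. The 5 called higher were the 4 probe sets of Tgfb2 and the 1 of Tgfb3. Shares over probe sets count some genes more than once and are no result about the genes. The ages did not overlap for 5 of the 8 genes, against 50.3% of all genes tested, so these shares over the genes are no result about them as a set. The median log2 difference of the 8 was -0.27, and that of all genes tested was 0.00. The RNA is from whole glands, where fewer cells of a type and less RNA per cell cannot be told apart. Signals of different probe sets are not compared, because probes differ in brightness for the same amount of RNA.

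**Figure D1:**
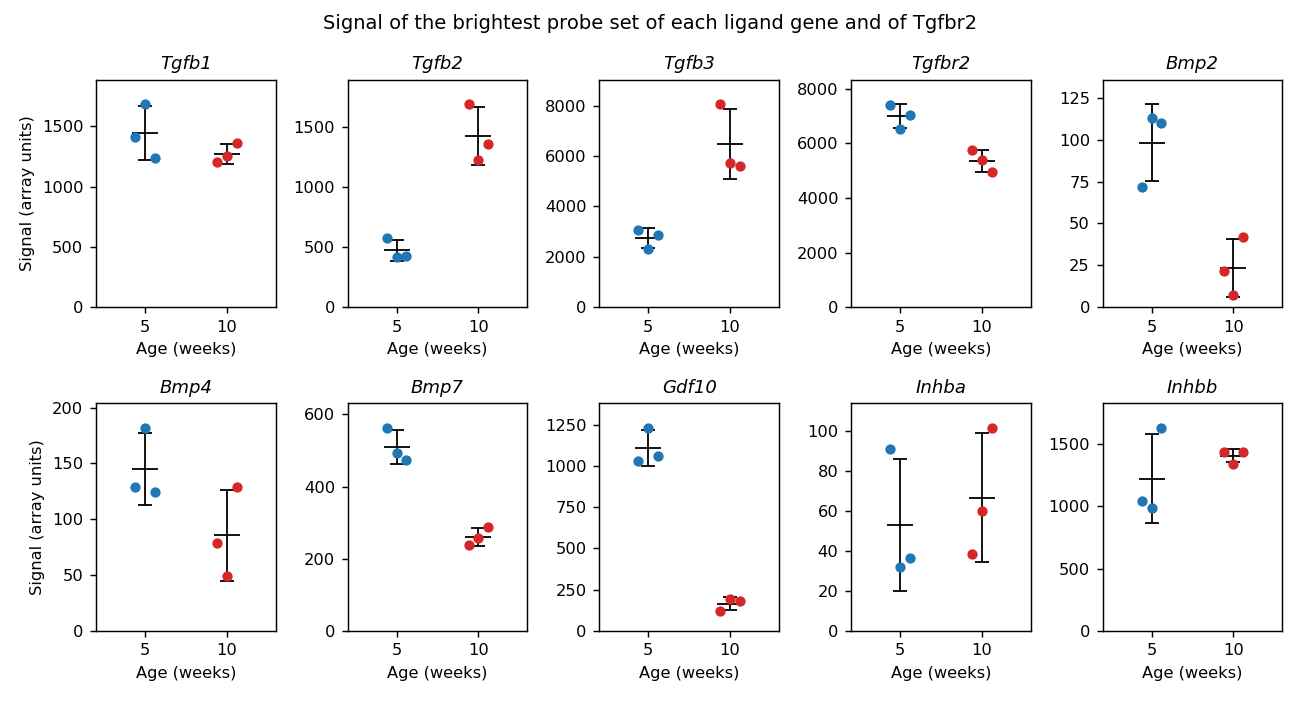
Signal of the brightest probe set of each gene (array units, linear axis from 0) in the 3 pools at 5 weeks (blue) and the 3 at 10 weeks (red), with bars for the mean and SD. Tgfb2 and Tgfb3 lie higher at 10 weeks and Gdf10, Bmp7, Bmp2 and Tgfbr2 lower, with no overlap of the ages, while the ages overlap for Tgfb1, Bmp4, Inhba and Inhbb.

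Tgfb2 encodes a TGF-beta whose latent form, unlike those of Tgfb1 and Tgfb3, lacks the integrin-binding RGD motif. On its brightest probe set, 1423250_a_at, the signal at 10 weeks was 1695.3, 1230.4 and 1359.0, and at 5 weeks it was 576.8, 418.5 and 425.0. Every 10-week pool lay above every 5-week pool. The means were 1428 ± 240 (SD, n = 3) and 473 ± 89.6 (SD, n = 3), a log2 difference of 1.53 ± 0.17 (SE) with a 95% interval from 1.16 to 1.91 (limma, adjusted p = 0.000318). The other 3 Tgfb2 probe sets were called too, with log2 differences of 1.26, 1.19 and 1.07. Of the 4, 1423250_a_at, 1450922_a_at and 1450923_at are listed under the same source sequence, so they are not independent of each other.

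RefSeq promoter entries (build GRCm38.p6) matched 7 of the 10 genes, all but Tgfb3, Bmp2 and Bmp7. The 250 bases before the Tgfb2 start are shown because, of the 2 genes called higher, Tgfb2 had an entry and Tgfb3 had none. Tgfb2 rose more than Tgfb3 on the brightest probe set of each gene. Of the other Tgfb2 probe sets, 1450922_a_at (1.26) rose more than that of Tgfb3 (1.22), and 1438303_at (1.19) and 1450923_at (1.07) less. The bases before the Gdf10 start are shown because Gdf10 had the largest difference of the 10 genes. The motifs searched on both strands were TATAAA, the E-box CACGTG, the cAMP response core TGACG, the Smad box CAGAC and the BMP-responsive element GGCGCC. None of them overlap in these windows, and matches are in capitals.
Tgfb2, chr1:186705990-186706239, minus strand: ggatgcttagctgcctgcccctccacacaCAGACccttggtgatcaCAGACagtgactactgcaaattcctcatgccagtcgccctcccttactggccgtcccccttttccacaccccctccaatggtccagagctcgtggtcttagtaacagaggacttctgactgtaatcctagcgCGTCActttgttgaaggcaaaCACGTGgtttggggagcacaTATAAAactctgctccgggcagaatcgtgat
Gdf10, chr14:33923337-33923586, plus strand: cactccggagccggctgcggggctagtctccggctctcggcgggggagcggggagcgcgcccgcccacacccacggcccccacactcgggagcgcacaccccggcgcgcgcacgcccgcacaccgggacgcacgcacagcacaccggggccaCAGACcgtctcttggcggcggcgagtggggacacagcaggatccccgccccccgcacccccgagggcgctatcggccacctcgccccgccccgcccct
The Tgfb2 window held a TATAAA 31 bases before the start, a CACGTG at 51, the core as CGTCA at 72 and Smad boxes at 204 and 221. The Gdf10 window held a Smad box at 98 and none of the other letters searched. Among 32851 promoter windows of the same length, 12.4% held TATAAA, 6.02% CACGTG, 17.8% the cAMP response core, 42.2% a Smad box and 9.59% GGCGCC. A match describes the letters and is not a bound site.

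Tgfb3, the TGF-beta known from milk stasis and involution, had 1 probe set, 1417455_at. It gave 8068.4, 5744.0 and 5600.9 at 10 weeks and 3053.7, 2305.0 and 2870.4 at 5 weeks. The groups did not overlap, and 10-week pool 1 stood highest. The means were 6471 ± 1385 (SD, n = 3) and 2743 ± 390 (SD, n = 3), and the log2 difference was 1.22 ± 0.16 (SE), with an interval from 0.85 to 1.58 (limma, adjusted p = 0.000807). Without 10-week pool 1 it was 1.05 and still called.

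Tgfb1, the TGF-beta made by many epithelial, stromal and immune cells, was not called. Its brighter probe set, 1420653_at, gave 1202.0, 1252.1 and 1365.6 at 10 weeks and 1410.9, 1684.4 and 1238.6 at 5 weeks. The groups overlapped. The log2 difference was -0.17 ± 0.13 (SE), with an interval from -0.47 to 0.13 (limma, adjusted p = 0.369), and the dimmer probe set 1445360_at gave -0.17 as well (adjusted p = 0.525). The age differences of the 3 genes on their brightest probe sets were compared in pairs by the log2 ratio within each array. This comparison was chosen after the values were seen. The difference of Tgfb2 exceeded that of Tgfb1 by 1.70 and that of Tgfb3 exceeded it by 1.39, while Tgfb3 minus Tgfb2 was -0.31. The sign of the last pair depends on the Tgfb2 probe set, as 1438303_at (1.19) and 1450923_at (1.07) rose less than Tgfb3 (1.22). In each of the 3 pairs the ratios of the ages did not overlap, and the two-sided exact permutation p was 0.1, the smallest that 3 against 3 pools allow (0.1 after Benjamini-Hochberg adjustment over the 3 pairs).

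Tgfbr2, the type II receptor that binds TGF-beta, had 3 probe sets that did not give the same answer. The brightest, 1426397_at, gave 5753.7, 5399.0 and 4953.1 at 10 weeks and 7410.1, 6529.0 and 7047.1 at 5 weeks. All 10-week pools lay below all 5-week pools, with a log2 difference of -0.38 ± 0.09 (SE) and an interval from -0.59 to -0.17 (limma, adjusted p = 0.0162). The second, 1425444_a_at, gave 647.3, 896.4 and 794.6 at 10 weeks and 1006.4, 765.1 and 850.5 at 5 weeks. Here the ages overlapped and the difference of -0.16 was not called (adjusted p = 0.47). The third, 1422019_at, was under the filter, with signals of 67.2 to 70.7 at 10 weeks and 20.1 to 49.3 at 5 weeks, and in a fit without the filter its difference was 0.57 (adjusted p = 0.119). The call of the brightest probe set was lost without 10-week pool 3 (adjusted p = 0.0609), without 5-week pool 1 (0.0586), without the variance trend (0.0518) and when the probe sets were averaged (-0.27, adjusted p = 0.076).

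**Figure D2:**
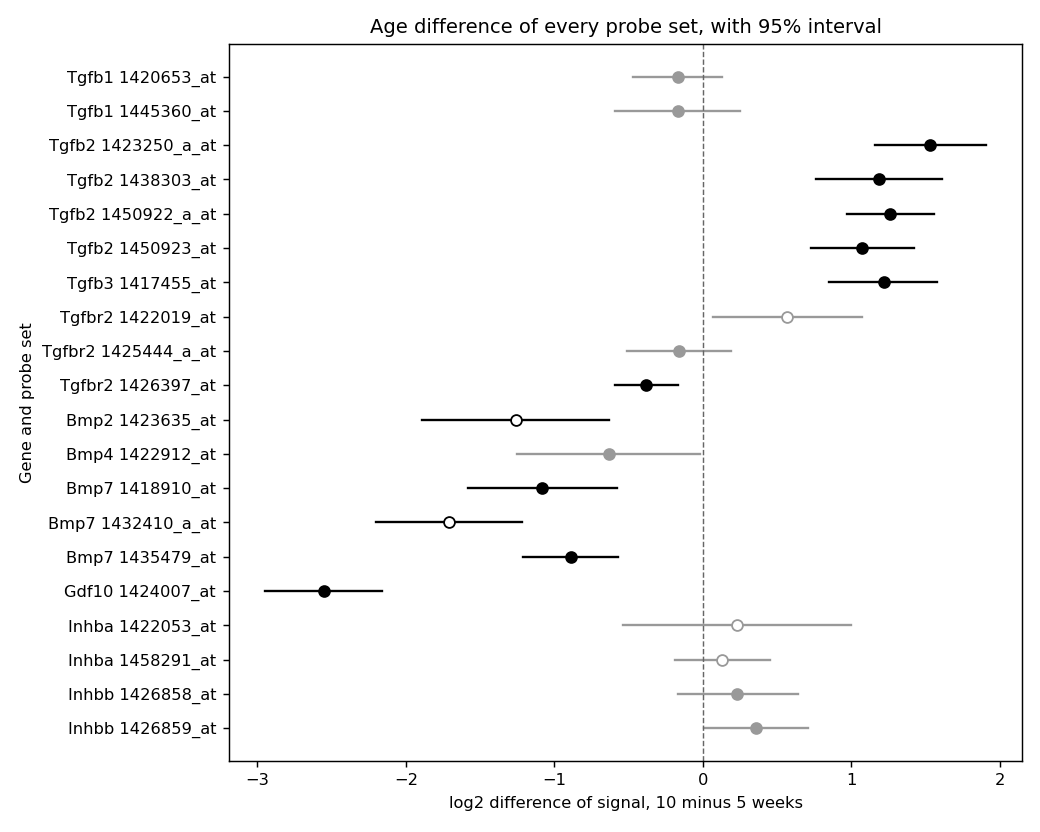
The log2 difference of signal (10 minus 5 weeks) for each of the 20 probe sets, with its 95% interval from limma. Black marks an adjusted p under 0.05 and grey a higher one; filled points passed the filter, and open points did not and are from the fit without it. The 4 Tgfb2 probe sets lie to the right of 0 and the 3 Bmp7 probe sets to the left, while the 3 of Tgfbr2 lie on both sides.

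Gdf10, also called Bmp3b, encodes a divergent member of the BMP group and showed the largest age difference of the 10 genes. Its probe set 1424007_at gave 120.7, 190.5 and 181.4 at 10 weeks and 1028.3, 1230.8 and 1060.3 at 5 weeks. The highest 10-week pool was far below the lowest 5-week pool. The means were 164 ± 37.9 (SD, n = 3) and 1106 ± 109 (SD, n = 3), with a log2 difference of -2.55 ± 0.17 (SE) and an interval from -2.95 to -2.16 (limma, adjusted p = 4.68e-05). The 10-week signals lay near the median of all probe sets (157 to 166.7 on those arrays), and without a detection call it is unknown whether they stand above background. The difference was -2.77 with an offset of 1 and -2.20 with 100 in place of 32 before the logarithm.

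Bmp7, a BMP of many epithelia, was lower at 10 weeks on all 3 of its probe sets. On the brightest, 1435479_at, the signal was 237.4, 258.5 and 286.5 at 10 weeks and 562.9, 493.1 and 473.7 at 5 weeks, a log2 difference of -0.89 ± 0.14 (SE) with an interval from -1.21 to -0.57 (limma, adjusted p = 0.00199). The probe set 1418910_at gave 83.4, 97.6 and 135.3 against 249.2, 201.0 and 329.2, with a log2 difference of -1.08 (adjusted p = 0.00682). The ages did not overlap on either. The third, 1432410_a_at, was dim, at 15.3 to 36.6 against 142.0 to 147.9, and fell under the filter. In the fit without the filter, where 8.8% of 45037 probe sets were called lower, its log2 difference was -1.71 (limma, adjusted p = 0.00168).

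Bmp4 and Bmp2, closely related BMPs known from mammary bud and branching development, were dim. Bmp4 gave 78.8, 48.8 and 129.1 at 10 weeks and 128.6, 181.9 and 124.5 at 5 weeks. The ages overlapped through 10-week pool 3, and the log2 difference of -0.63 ± 0.27 (SE), with an interval from -1.25 to -0.02, was not called (limma, adjusted p = 0.114). Without 10-week pool 3 it was -0.89 and called (adjusted p = 0.0385), while without 5-week pool 2 the probe set fell under the filter. Bmp2 gave 21.6, 7.2 and 41.9 at 10 weeks and 71.6, 112.9 and 110.3 at 5 weeks, with no overlap. Bmp2 did not pass the filter, since its mean fell among the lowest 40%. In the fit without the filter, where 12.3% of 18193 genes were called lower, its log2 difference was -1.26 ± 0.27 (SE) (limma, adjusted p = 0.0179). That call did not survive leaving out either 10-week pool 1 or 2 (adjusted p = 0.0594 and 0.0555) or either 5-week pool 2 or 3 (0.0546 and 0.058). No detection call was used here, so whether signals this low stand above background is unknown.

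Inhbb and Inhba encode the activin beta subunits, which pair with each other to form activins and with the alpha subunit to form inhibins. Inhbb gave 1434.7, 1345.1 and 1441.2 at 10 weeks and 1046.5, 989.8 and 1632.3 at 5 weeks on 1426858_at. The ages overlapped because 5-week pool 3 was the highest of all, and the log2 difference of 0.23 ± 0.18 (SE), with an interval from -0.17 to 0.64, was not called (limma, adjusted p = 0.363). Without 5-week pool 3 the difference was 0.45 and called (adjusted p = 0.0221). The second Inhbb probe set, 1426859_at, gave 0.36 (adjusted p = 0.113), and without 10-week pool 2 it gave 0.50 (adjusted p = 0.0483). Both Inhba probe sets were under the filter. The brighter, 1422053_at, gave 38.3, 59.9 and 101.5 at 10 weeks and 91.0, 31.7 and 36.3 at 5 weeks, so 1 pool of each age stood apart from its group. Its log2 difference without the filter was 0.23, with an interval from -0.54 to 1.0 (limma, adjusted p = 0.706), and that of 1458291_at was 0.13 (adjusted p = 0.595).

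Around the ligands, 65 of 87 listed genes of the pathway were tested, and 7 were called higher and 26 lower at 10 weeks. The lists were sorted by role: other ligands, receptors, Smads and intracellular regulators, secreted antagonists with Bambi, genes of latency and processing, and target genes. They were read against the 15.3% of genes called higher and 18.7% called lower over all genes, whose median difference was 0.00.

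**Figure D3:**
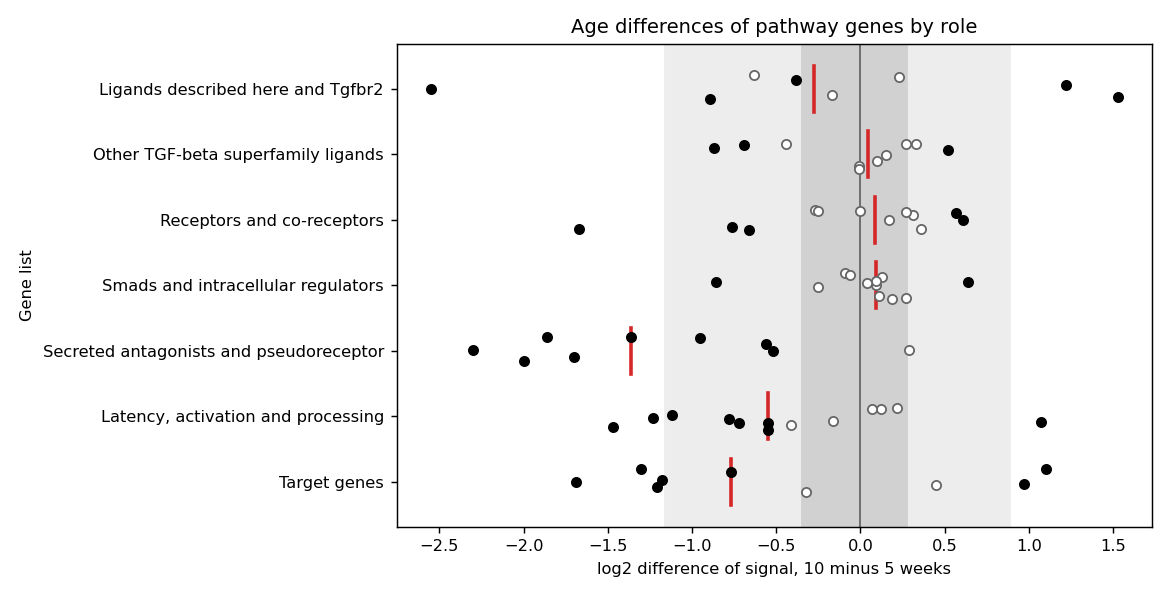
The log2 difference of signal (10 minus 5 weeks) of each tested gene, by role in the pathway, on its brightest probe set. Filled points passed the adjusted p of 0.05 and open points did not, red bars are list medians, the dark band holds the middle 50% and the light band the middle 90% of all genes tested. The antagonist list has the lowest median, -1.36, and the receptor and Smad lists have medians of 0.09.

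In the list of secreted antagonists, which also holds Bambi, 8 of 9 tested genes were called lower at 10 weeks, with a median log2 difference of -1.36. Bmper, which binds BMPs outside the cell, gave 273.9, 424.9 and 432.9 at 10 weeks and 1791.0, 1878.0 and 2180.5 at 5 weeks, a log2 difference of -2.30 ± 0.18 (SE) (limma, adjusted p = 7.26e-05). Fst, follistatin, which binds activins with high affinity, gave 380.9, 294.7 and 304.6 against 1119.1, 1109.7 and 1160.5, a log2 difference of -1.70 ± 0.13 (SE) (adjusted p = 7.26e-05). In both genes the ages stood well apart. The BMP antagonist genes Nbl1 and Chrdl1 were lower as well. Nbl1 gave 166.7, 70.5 and 191.4 against 764.7, 524.0 and 630.9 (log2 difference -2.00, adjusted p = 0.00119). Chrdl1 gave 129.6, 154.4 and 180.7 against 353.0, 395.6 and 628.9 (-1.36, adjusted p = 0.0023), and its other probe sets were called lower too. Sostdc1, Fstl3, Bambi and Chrd, named after their values were seen, had log2 differences of -1.86, -0.95, -0.56 and -0.52. Bambi is a membrane pseudoreceptor and the others are secreted. The 10-week means of Nbl1, Chrdl1, Chrd, Fstl3 and Sostdc1 were 143, 155, 168, 102 and 113, near or under the array medians. Those medians were 157 to 166.7 at 10 weeks, and without a detection call it is unknown whether such signals stand above background. Sostdc1 gave 15.8, 181.9 and 141.0 at 10 weeks, and without 10-week pool 1, the low one, its difference was -1.19 and still called (limma, adjusted p = 0.00683). Twsg1, a BMP-binding protein, was not called (0.29, adjusted p = 0.133). Nog and Grem1 were under the filter. The number called lower was 5 without 5-week pool 1, when Sostdc1 (adjusted p = 0.0529), Chrd (0.11) and Bambi (0.0699) lost their calls, and 5 without 5-week pool 3 (0.068, 0.0796 and 0.0829). It was 6 without any 1 of the 10-week pools 1, 2 and 3, when Chrd (0.1, 0.0826 and 0.0586) and Bambi (0.068, 0.0792 and 0.0692) were not called. Bambi was also lost under quantile normalization (0.0599) and Chrd without the filter (0.0676).

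**Figure D4:**
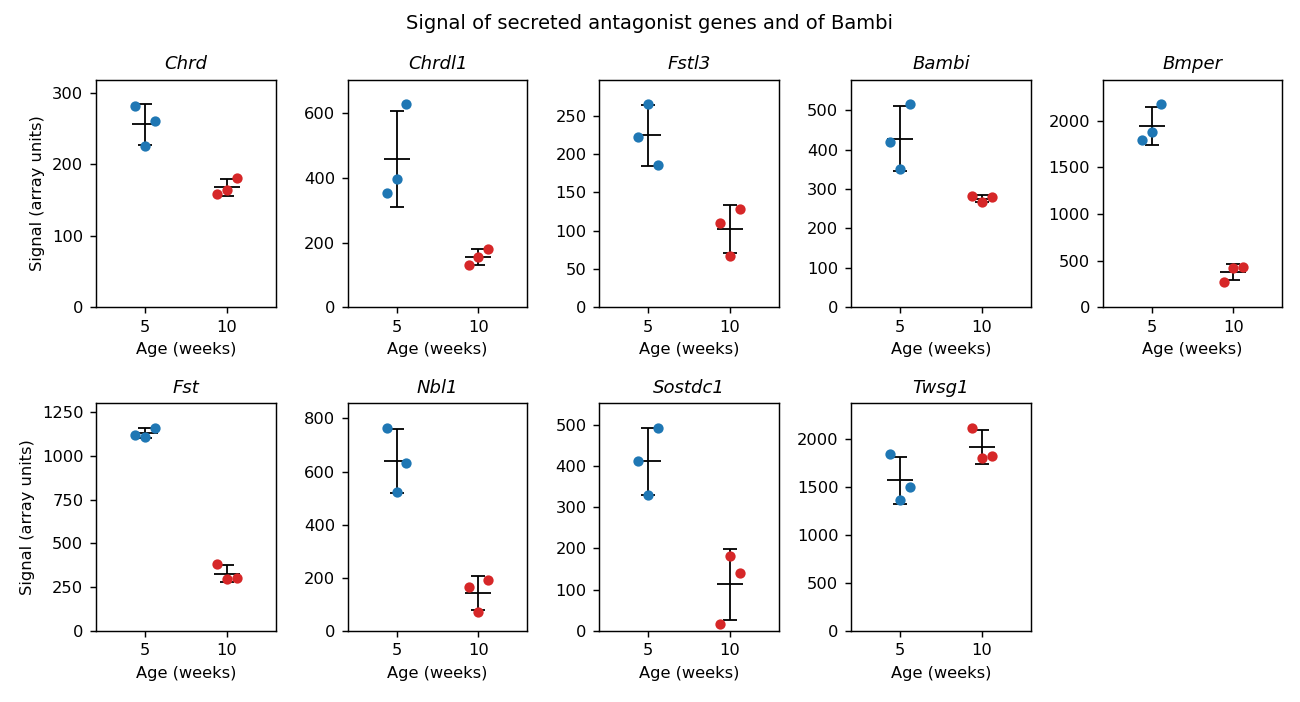
Signal (array units, linear axis from 0) of the 9 tested antagonist genes in the 3 pools at 5 weeks (blue) and the 3 at 10 weeks (red), with bars for the mean and SD. In 8 panels all 10-week pools lie below all 5-week pools, and for Twsg1 the ages overlap.

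Target genes were called lower in 5 of 9 cases and higher in 2, with a median of -0.77. The Id genes, which encode inhibitors of basic helix-loop-helix factors and are textbook targets of BMP signalling, did not move together. Id3 gave 482.6, 503.4 and 617.0 at 10 weeks and 1576.6, 1922.2 and 1865.7 at 5 weeks, a log2 difference of -1.69 ± 0.13 (SE) (limma, adjusted p = 8.29e-05). Id4 (-1.30, adjusted p = 0.00021) and Id1 (-1.21, adjusted p = 0.00431) were lower too. Id2 gave 3126.7, 3421.7 and 3705.4 against 1913.8, 1564.8 and 1720.9 and was higher by 0.97 ± 0.11 (SE) (adjusted p = 0.000421), and its 3 tested probe sets were all called higher. Tgfbi, a TGF-beta-induced matrix protein gene, was lower (-0.77, adjusted p = 0.00138), and so was the BMP target Msx2, named after its value was seen (-1.18, adjusted p = 0.0069). Msx2 gave 42.5, 93.3 and 59.9 at 10 weeks and 207.4, 142.2 and 206.2 at 5 weeks. Its 10-week signals lay under 102.5, about the lowest mean signal that was tested. With a pool left out, Msx2 passed the filter in only 4 of the fits, and it was called lower in those. Ccn2, a matricellular gene induced by TGF-beta, gave 1007.7, 1364.1 and 1797.4 at 10 weeks and 710.3, 435.8 and 744.4 at 5 weeks, and was higher by 1.10 ± 0.24 (SE) (adjusted p = 0.01).

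Genes of latency, activation and processing were called lower in 7 of 13 cases and higher in 1, with a median of -0.55. Pcsk5, a proprotein convertase, gave 278.3, 234.6 and 224.0 at 10 weeks and 764.2, 663.5 and 780.5 at 5 weeks (log2 difference -1.47, limma, adjusted p = 0.000183). Ltbp4, a latent TGF-beta binding protein, gave 989.1, 1202.2 and 1475.6 against 2811.2, 2931.5 and 2857.0 (-1.23, adjusted p = 0.00041). Bmp1, which despite its name is a metalloprotease that cleaves procollagen and the BMP antagonist chordin, was lower by a log2 difference of -1.12 (adjusted p = 0.000419) on its brightest probe set. Nrros, which holds latent TGF-beta on myeloid cells, had a difference of -0.72 (adjusted p = 0.00394). Itgb8, a subunit of an integrin that activates latent TGF-beta, was the exception, with 1306.8, 1090.5 and 972.4 at 10 weeks against 692.5, 365.2 and 535.7 at 5 weeks (1.07 ± 0.21 SE, adjusted p = 0.00628). That integrin acts through the RGD motif that Tgfb2 lacks.

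Among receptors, 3 of 12 were called lower and 2 higher, with a median of 0.09. Acvr1c, a type I receptor (ALK7) known from adipocytes, gave 138.7, 279.8 and 267.4 at 10 weeks and 667.6, 806.5 and 844.2 at 5 weeks (log2 difference -1.67, limma, adjusted p = 0.00105). Eng, the endothelial co-receptor endoglin, had a difference of -0.76 (adjusted p = 0.00768). The co-receptor gene Tgfbr3, which presents TGF-beta2 to Tgfbr2, had -0.66 on its brightest probe set (adjusted p = 0.00659), but the mean of its 2 tested probe sets gave -0.30 (adjusted p = 0.12). The type I receptor of TGF-beta, Tgfbr1, gave 3416.2, 2785.8 and 2868.3 against 2346.3, 1796.9 and 1786.8 and was higher by 0.61 ± 0.14 (SE) (adjusted p = 0.00999), though 1 of its 3 tested probe sets was called. The activin type I receptor gene Acvr1b was higher by 0.57 ± 0.12 (SE) (adjusted p = 0.00673), and 1 of its 2 tested probe sets was called. Bmpr1a, a BMP type I receptor gene, was not called on its brightest probe set (0.17, limma, adjusted p = 0.219). Of its 5 tested probe sets 2 were called higher (0.45 and 0.43, adjusted p = 0.0331 and 0.0181). No receptor gene had probe sets called in both directions.

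Intracellular genes showed few differences, with 1 of 12 called lower, 1 higher and a median of 0.09. Smad6, an inhibitory Smad of BMP signalling, gave 164.6, 203.4 and 189.8 at 10 weeks and 268.0, 342.7 and 517.8 at 5 weeks (-0.86, limma, adjusted p = 0.0196), a call that rested on 10-week pool 1 (adjusted p = 0.0646 without it). Tgif1, a co-repressor of Smads, was higher by 0.64 (adjusted p = 0.0284), a call that did not survive leaving out 10-week pool 1 or 2 (adjusted p = 0.0961 and 0.0939) or 5-week pool 1 or 2 (0.0865 and 0.076). Of 24 further ligand genes, 18 had a probe set and 10 passed the filter, with 2 called lower, 1 higher and a median of 0.05. Bmp6 (-0.87, adjusted p = 0.0203) and Bmp5 (-0.69, adjusted p = 0.0237) were lower and Gdf3 was higher (0.52, adjusted p = 0.0489). These calls were weak: leaving out pool 3 of either age ended that of Bmp6 (adjusted p = 0.051 at 10 weeks and 0.0695 at 5 weeks), and 10-week pool 2 or 3 that of Bmp5 (0.0594 and 0.0642), while the call of Gdf3 was gone without any 1 of the 6 pools (0.0553 to 0.135).

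Markers of the cell types in the gland moved with age as well. Of 8 fibroblast markers 7 were called lower at 10 weeks, and the mean log2 level of the list was 11.85 to 12.16 in the 10-week pools and 12.89 to 13.00 in the 5-week pools. Of 8 endothelial markers 7 were lower (9.06 to 9.29 against 9.90 to 10.11), and of 7 adipocyte markers 3 (12.20 to 12.58 against 12.87 to 13.13). Of 8 luminal markers 6 were higher (12.77 to 12.97 against 11.82 to 12.20), and of 8 basal markers 5 were higher and 1, Oxtr, lower. Bright markers of the luminal and fibroblast lists gave these signals. Epcam, a luminal marker, averaged 10516 ± 1253 in the older and 5575 ± 1244 in the younger pools (SD, n = 3 each). The fibroblast collagen gene Col1a1 averaged 6367 ± 447 and 13307 ± 1651 on its brightest probe set. Its other tested probe set averaged 2694 ± 176 and 2847 ± 527, with overlap of the ages, and was not called (log2 difference -0.06, limma, adjusted p = 0.655). Col3a1, the brightest fibroblast marker and the one not called on its brightest probe set, averaged 15624 ± 973 and 17980 ± 2290 there (log2 difference -0.20, limma, adjusted p = 0.209). The other tested Col3a1 probe set was called lower (-1.08, limma, adjusted p = 0.0016), so the probe sets of both collagen genes did not give the same answer. The skeletal muscle list ranged from 8.97 to 11.95 at 10 weeks, with 10-week pool 1 the lowest, and from 12.31 to 13.36 at 5 weeks, and 3 of 8 markers were called lower. The part of these shifts in the age differences of the ligand, antagonist and target genes was not tested. Without 10-week pool 1 the log2 differences were 1.40 for Tgfb2, 1.05 for Tgfb3, -0.83 for Bmp7 and -2.38 for Gdf10. Macrophage markers went both ways, with 4 called higher and 3 lower (10.95 to 11.04 against 10.89 to 10.98). The B cell list was highest in 5-week pool 2, at 10.06, against 7.64 to 8.94 in the other pools.

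**Figure D5:**
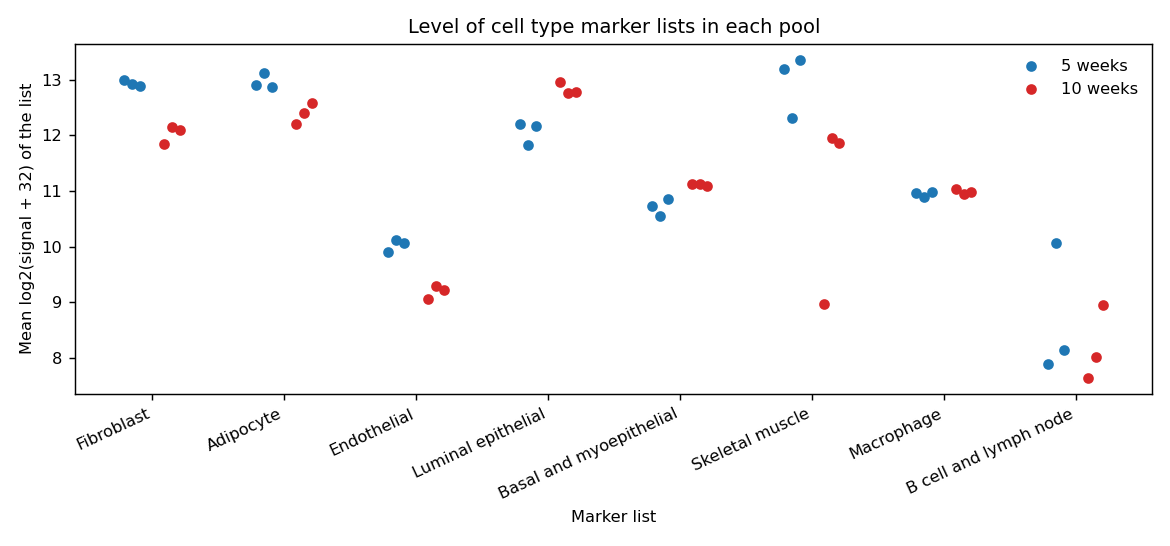
Mean log2(signal + 32) of each marker list in the 3 pools at 5 weeks (blue) and the 3 at 10 weeks (red). Fibroblast, endothelial and adipocyte lists lie lower at 10 weeks and luminal and basal lists higher, and 10-week pool 1 is the lowest for skeletal muscle, at 8.97.

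Genes with the most similar course over the 6 arrays were sought for the 8 tested genes by the root mean square difference of log2 values, each gene centred on its own mean. With 13002 candidates and 6 arrays, close matches exist for most courses. Nearest to Tgfb2 were Arrdc4 (root mean square difference 0.029) and Map7 (0.075), and nearest to Tgfb3 were Esrp2 (0.070), an epithelial splicing factor, and Rnf43 (0.080), a ubiquitin ligase that restrains Wnt receptors. Nearest to Gdf10 were Mmd2 (0.123) and Csrp2 (0.151), and to Bmp7 Tent5a (0.040) and Ift57 (0.048). For Bmp4 they were Ptgds (0.043), a prostaglandin D synthase, and Cyria (0.129), and for Tgfbr2 Vat1 (0.033) and Rhbdf1 (0.036). Tgfb1 was nearest to Zfp14 (0.042) and Lrfn1 (0.049), and Inhbb to Slc46a1 (0.045) and 1700042G07Rik (0.060).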

How the data were processed

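The deposited values are linear signal intensities from 6 one-colour arrays, 1 per probe set, in the authors' series value table, with 45101 probe sets of which 64 controls were left out. The mean without the lowest and highest 2% was 500 on every array, a property tested on the deposited intensities. The algorithm, detection calls and batches are not given in the sources used here, and the pools' numbers follow accession order. Median signals were 156.4 to 172.5. Correlations of log2 signals were 0.973 to 0.978 within and 0.932 to 0.955 between ages, and the number of arrays limits the precision.

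Symbols came from the platform annotation and were updated by gene identifier in RefSeq GRCm38.p6, which matched 34741 of 34945 probe sets with 1 symbol (932 had several and 9160 none). Signals under 1 were set to 1 and log2(signal + 32) was taken, which understates differences of dim genes. The dimmest 40% of probe sets by mean log2 were not tested, leaving 27022 (a mean signal of about 102.5 and above). limma 3.58.1 in R 4.3.3 (lmFit, eBayes with a variance trend, age as the term, 4 residual degrees of freedom) was run on all 6 pools, two-sided, with Benjamini-Hochberg adjustment. The brightest probe set stood for a gene. SEs and 95% intervals are moderated ones. The fit was tested on simulated data. Each pool represents 3 animals and each age 9, per the labels' design text. The limma p-values set the age difference against the spread between pools, as moderated over all probe sets tested.

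All 10 genes are named. In a pathway list, the rule takes 4 genes by smallest adjusted p on the side with more calls, plus the 2 largest calls on the opposite side. For marker lists, counts and levels are given in place of most of the gene values the rule allows. The genes and lists were chosen with earlier results of these data known. Alternatives changed the offset, filter, normalization, variance model, array weights and probe set summary, and left out each pool. Plots used Python 3.11.15 and matplotlib 3.10.9.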

Additional observations from a re-analysis of the deposited data

How the results depend on the processing

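The calls of Tgfb2, Tgfb3, Bmp7 and Gdf10 on their brightest probe sets kept their direction and their side of the threshold under every alternative run. With all pools kept, the log2 difference of Tgfb2 was 1.41 to 1.59 on its brightest probe set. It was 1.26 when its probe sets were averaged. Leaving out each pool in turn gave 1.40 to 1.67 for Tgfb2, 1.05 to 1.31 for Tgfb3, -0.95 to -0.82 for Bmp7 and -2.65 to -2.38 for Gdf10. The Tgfbr2 call was lost with no variance trend (-0.38, adjusted p = 0.0518) and with averaged probe sets (-0.27, adjusted p = 0.076), and it ran from -0.43 to -0.32 with a pool left out. Bmp4 ran from -0.89 to -0.39 and Inhbb from 0.10 to 0.45, with a call gained in 1 case each. The count of antagonists called lower was 5 with the lowest 60% of probe sets left out, since fewer genes were tested, and 5 to 8 with a pool left out. For Inhba on 1422053_at the sign reversed without 10-week pool 3 (-0.01, no filter), a setting chosen after seeing the data, as were all fits without the filter that also left out a pool. The other causes were not tested. Over all genes, calls numbered 1399 to 1762 higher and 1887 to 2033 lower with a pool left out. Quantile normalization and median centring moved the median of all genes to 0.016 and 0.020. No paired analysis was possible because the labels give the pools no shared replicate numbers. Signals of Bmp2, Inhba and Bmp4 near the bottom of the range limit what these arrays can show. The same holds for 10-week signals near or under the array median, as in Gdf10, Msx2 and several antagonist genes.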
